A study of Mus musculus with 3 samples.

Results

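The cadherins and claudins were read in 3 cell fractions of mouse epididymal fat, 1 microarray each. Members were chosen by name alone: every probe, controls left out, that the array annotation calls Cdh or Cldn followed by a number, without Cdh5 and Cldn5, the endothelial forms. This gave 44 genes, 22 cadherins and 22 claudins, of 37324 genes on the arrays, and 77 probes of 56602. All fractions were made by collagenase digestion of epididymal fat from male C57/BL mice aged 20 weeks, with no genotype or treatment given that would set them apart. Stromal vascular cells (SVC) were the lower phase of a spin at 9 xg for 1 s, small proliferative adipocytes (SPA) the sediment of a second spin of the floating cells at 226 xg for 3 min, and mature adipocytes (MA) the cells that still floated. SVC and SPA were harvested at 90% confluence in culture, no culture is described for MA, and the date in the record of MA differs from that of the other two, so cell type, culture and date cannot be told apart in any comparison with MA.

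Cadherins are transmembrane proteins that hold neighbouring cells together through calcium-dependent binding, and their cytoplasmic tails are tied to actin by catenins. The classical type I members include E-cadherin (Cdh1), N-cadherin (Cdh2) and P-cadherin (Cdh3), type II members such as Cdh11 are typical of mesenchymal cells, and Cdh13 (T-cadherin) has a lipid anchor in place of a tail and binds high-molecular-weight adiponectin. Claudins are the strand-forming proteins of tight junctions, most of them found in epithelia, and the mesothelium that lines visceral fat is an epithelium of this kind.

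Of the 44 members, 29 were well above background on at least 1 array, 13 cadherins and 16 claudins, and 23 were so on all 3 arrays. Levels are given as log2 of the signal over the array's 75th percentile, so 0 is the signal of the spot at that percentile, and a difference of 1 is 2-fold. A level shows how bright 1 probe was, so levels of different genes were not set against each other. The summed signal of a gene list weighs its brightest probes most. A gene was counted as different at 5-fold or more, provided that the brighter of both arrays was well above background. Where the dimmer array was not well above background, the fold is a lower bound taken against the lowest signal that still was, which lay at -4.95 in SVC, -5.14 in SPA and -5.15 in MA. With 1 array in each group no difference has a replicate check and no test was run. In such bulk RNA, fewer cells of a type and less RNA per cell cannot be told apart.

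The promoters of 4 claudins are shown: Cldn1, Cldn3 and Cldn22, which passed 5-fold in at least 1 comparison, and Cldn4, set beside them. Cldn1, Cldn3 and Cldn4 were lower in SPA and lower again in MA, the second step being under 2-fold. Cldn7, not shown, had the same order, and Cldn22 was well above background only in MA. Each sequence is the 250 bases before the annotated start in the RefSeq table of GRCm38.p6, printed 5′ to 3′ on the strand of the gene. Capitals mark GGGCGG or CCGCCC, the GC box bound by Sp1-type factors, and CAGGTG or CACCTG, the E-box bound by the Snail and ZEB repressors of epithelial genes, each searched on both strands and without overlap with the other.
Cldn1, chr16:26371840-26372089, minus strand: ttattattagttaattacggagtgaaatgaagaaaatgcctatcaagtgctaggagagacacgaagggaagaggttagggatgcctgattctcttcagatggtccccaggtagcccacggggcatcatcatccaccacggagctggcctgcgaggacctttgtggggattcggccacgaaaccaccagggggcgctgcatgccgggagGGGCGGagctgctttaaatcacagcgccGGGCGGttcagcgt
Cldn3, chr5:134985964-134986213, plus strand: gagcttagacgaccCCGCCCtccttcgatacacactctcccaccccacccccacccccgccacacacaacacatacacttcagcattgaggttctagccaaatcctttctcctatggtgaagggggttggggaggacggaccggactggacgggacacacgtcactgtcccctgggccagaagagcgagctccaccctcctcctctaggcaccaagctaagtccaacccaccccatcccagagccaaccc
Cldn4, chr5:134946935-134947184, minus strand: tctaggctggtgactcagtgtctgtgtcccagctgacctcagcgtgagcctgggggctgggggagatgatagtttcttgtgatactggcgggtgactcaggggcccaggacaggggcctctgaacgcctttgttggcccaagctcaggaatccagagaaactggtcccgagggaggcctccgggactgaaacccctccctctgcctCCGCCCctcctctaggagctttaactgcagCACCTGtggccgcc
Cldn22, chr8:47824232-47824481, plus strand: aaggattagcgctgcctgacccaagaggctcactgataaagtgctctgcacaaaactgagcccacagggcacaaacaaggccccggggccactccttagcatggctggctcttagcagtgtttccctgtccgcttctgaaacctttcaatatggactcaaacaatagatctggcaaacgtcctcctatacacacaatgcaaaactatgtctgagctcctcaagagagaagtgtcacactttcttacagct

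Cldn1 has 2 GC boxes, 42 and 14 bases before the start. Cldn3 has 1 GC box, 236 bases before the start, and Cldn4 has 1, 44 bases before, with 1 E-box 14 bases before the start. Neither motif is in the window of Cldn22. Over the 32851 windows of the table, 17.2% hold the E-box and 32.7% the GC box. The table has 31 of the 44 members, some with several windows, and of their 41 windows 6 hold the E-box and 16 the GC box. Counted by gene, the E-box stands in a window of 5 (Cdh7, Cldn4, Cldn6, Cldn7 and Cldn14) and the GC box in a window of 14. Of the 5 genes with the E-box, Cdh7, Cldn4 and Cldn7 were lower in SPA and again in MA. Among these steps, only that of Cldn4 from SVC to SPA reached 2-fold. Cdh7 and Cldn14 stayed under 2-fold in every comparison, and Cldn6 was well above background on no array. The match of letters is a description and does not show a bound site.

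**Figure D1:**
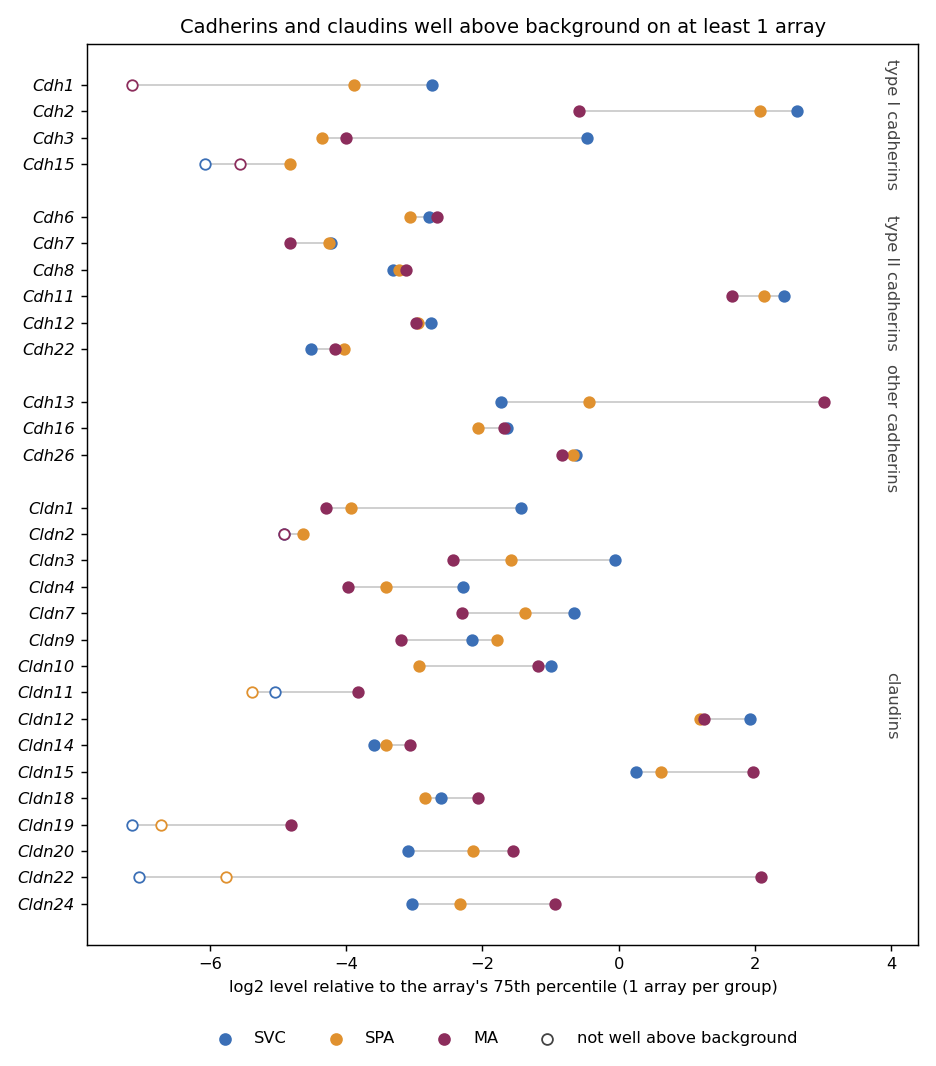
Levels of the 29 cadherins and claudins well above background on at least 1 array. The x axis is the level (log2 of the signal over the array's 75th percentile), each point is 1 array (SVC blue, SPA orange, MA purple), and open points were not well above background; for Cldn2 the open points of SVC and MA lie on each other at -4.91. Cdh3 and Cldn1 stood apart in SVC, Cdh13 and Cldn22 in MA, while Cdh6, Cdh8, Cdh12 and Cdh26 differed by at most 0.39 between any 2 arrays.

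The comparison of SPA with SVC sets both cultured fractions side by side. Cdh3 and Cldn1 were at least 5-fold lower in SPA, and Cdh1, Cldn3, Cldn4 and Cldn10 at least 2-fold. Cdh16 was not counted, as its brightest probe on average stayed under 2-fold. It joined them with the probe of the largest ratio, which made 3 members at 5-fold. With the median of the probes it made 7 at 2-fold. Cdh13 was at least 2-fold higher, a call that ended with the normexp background correction (log2 ratio 1.00, just under 2-fold), while with no filter on dim probes 4 members were higher. Thus 2 of the 26 members well above background on either array (7.69%) were at least 5-fold lower, against 0.351% of the 22808 genes read, and 0 were at least 5-fold higher, against 0.320%. At 2-fold, 6 members were lower, against 3.24% of all genes, and 1 was higher, against 3.89%. The median log2 ratio over the 24 members measured on both arrays was -0.25, while that over all genes was 0.05. Of the 12 claudins measured on both, 7 were lower and 5 higher in SPA (Cldn9, Cldn14, Cldn15, Cldn20 and Cldn24, each under 2-fold), with a median of -0.47. Cldn1 with 5.66-fold was the member closest to the 5-fold line from inside, and Cldn10 with 3.84-fold the closest from outside.

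Cdh3, the P-cadherin of basal epithelial cells, was at -0.47 in SVC, -4.36 in SPA and -4.00 in MA. It was bright in SVC alone, 14.9-fold above SPA and 11.6-fold above MA, and the levels of SPA and MA differed by 1.29-fold. Its probe lies at chr8:109079933-109079992 (mm9, plus strand). Cdh1, the E-cadherin of epithelia, whose probe lies 113.9 kb further on at chr8:109193812-109193871 on the same strand, was at -2.74 in SVC, -3.89 in SPA and -7.15 in MA, where it was not well above background. It was 2.21-fold lower in SPA than in SVC, and in MA at least 2.4-fold lower than in SPA and at least 5.29-fold lower than in SVC. No protein-coding gene lies between these neighbours. With normexp, Cdh1 was under 2-fold in both steps, with log2 ratios of -0.45 for SPA over SVC and, as a bound, -0.20 for MA over SPA.

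Cldn1, a sealing claudin whose probe is at chr16:26356740-26356799 (minus strand), was at -1.43 in SVC, -3.93 in SPA and -4.29 in MA. SVC was the bright array, 5.66-fold above SPA and 7.29-fold above MA. Cldn3, another sealing claudin (chr5:135463284-135463342, plus strand), was at -0.05, -1.58 and -2.43 in the same order, which is 2.89-fold lower in SPA and 5.2-fold lower in MA than in SVC. Cldn4, its neighbour 41.1 kb away on the minus strand (chr5:135422135-135422194), was at -2.29, -3.42 and -3.98, or 2.2-fold lower in SPA and 3.23-fold lower in MA. Cldn7, which also belongs to the claudins of tight epithelia, was at -0.66, -1.37 and -2.30, 1.64-fold lower in SPA and 3.12-fold lower in MA. All 4 of these claudins were highest in SVC, intermediate in SPA and lowest in MA, but every step from SPA to MA was under 2-fold. The log2 ratios of that step were -0.36 for Cldn1, -0.85 for Cldn3, -0.56 for Cldn4 and -0.92 for Cldn7. With the normexp background correction, Cldn1 had the same log2 ratio, -1.21, for SPA over SVC and for MA over SVC. Cldn10, which forms ion-selective channels, went down and up again, with -0.99 in SVC, -2.93 in SPA and -1.18 in MA, so that MA was 3.37-fold above SPA and within 1.14-fold of SVC.

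The size of these differences for dim probes hung on how background was taken off. With the normexp background correction, which adds an offset to every signal, the log2 ratio of SPA over SVC was -2.25 in place of -3.90 for Cdh3 and -1.21 in place of -2.50 for Cldn1, both under 5-fold in the same direction. For MA over SVC it was -2.12 in place of -3.53 for Cdh3, -1.21 in place of -2.87 for Cldn1, -1.62 in place of -2.38 for Cldn3 and a bound of -0.65 in place of -2.40 for Cdh1. Cldn4 also came under 2-fold, with -0.59 for SPA over SVC and -0.71 for MA over SVC. So did Cldn9, Cldn11 and Cldn24 for MA over SPA, with -0.73, a bound of 0.42 and 0.99, and Cldn9, Cldn11 and Cldn20 for MA over SVC, with -0.48, a bound of 0.36 and 0.93.

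Mesothelial markers were read beside these genes. All 11 mesothelial markers read were well above background on all 3 arrays. Summed over the list, the signal in percent of the 75th percentile came to 7530 on the SVC array, 1850 on the SPA array and 2760 on the MA array. Between SVC and SPA, 8 of the 11 lay 5-fold or more below SVC, and the median log2 ratio of the list was -2.56. In MA the markers parted: Msln, Upk3b, Lrrn4, Krt19 and Gpm6a were higher than in SPA by 2.65 to 3.22 on the log2 scale, whereas Upk1b, Krt8, Krt18, Krt7, Wt1 and Bnc1 were not higher (-1.17 to -0.03). Among the members, Cldn10 alone was at least 2-fold lower in SPA than in SVC and at least 2-fold higher again in MA. Of 10 epididymal epithelium markers, 8 were well above background on no array. The summed signal of the list was 49.3 in SVC, 42.1 in SPA and 48.1 in MA, most of it from Rnase10. The part of mesothelial cells in the levels of the cadherins and claudins was not tested.

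**Figure D2:**
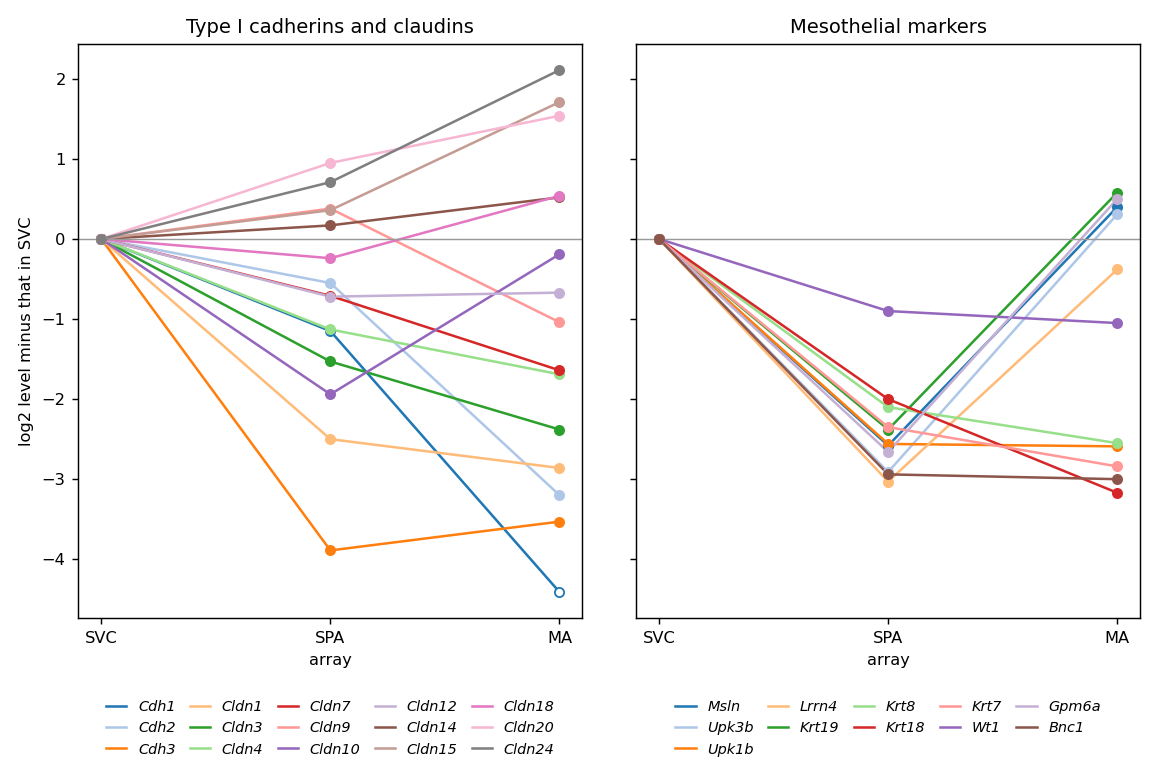
Log2 level minus that in SVC for the 15 type I cadherins and claudins well above background in both SVC and SPA (left) and 11 mesothelial markers (right) on the 3 arrays, with lines joining the values of 1 gene and an open point where the probe was not well above background. From SVC to SPA, 10 of the 15 lines on the left run down and 5 up, and all 11 marker lines run down. In MA, 5 marker lines return to within 0.57 of their SVC level in MA, and Cldn10 returns to -0.19.

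MA differed from SPA in other members. Cdh13 and Cldn22 were higher in MA and Cdh2 was lower, which makes 2 of 29 members well above background at least 5-fold higher, against 5.47% of 24101 genes, and 1 of 29 at least 5-fold lower, against 3.97%. These shares are near those of all genes. At 2-fold, 6 members were higher, against 15.7% of all genes, and 3 were lower, against 18.0%. The median log2 ratio was 0.05 over the 23 members measured on both arrays and -0.08 over all genes. Against SVC, 2 of 27 members were at least 5-fold higher in MA (Cdh13 and Cldn22), with 5.72% of 23596 genes, and 5 were at least 5-fold lower (Cdh1, Cdh2, Cdh3, Cldn1 and Cldn3), with 3.96%. At 2-fold, 6 members were higher in MA than in SVC, against 17.2%, and 8 were lower, against 18.0%. The median there was -0.21 over 23 members and -0.07 over all genes. Both comparisons use the same MA array, so their values for a gene are not independent.

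Cdh2, the N-cadherin of mesenchymal and neural cells, was at 2.62 in SVC, 2.07 in SPA and -0.58 in MA. Both cultured fractions were bright and within 1.47-fold of each other, and MA was 6.3-fold below SPA and 9.23-fold below SVC. A second probe of Cdh2 was dim, at -4.03, -4.59 and -5.91, not well above background in MA, and gave the same log2 ratio of SPA over SVC (-0.55). There the bound was a log2 ratio of -0.56 for MA over SPA and -1.12 for MA over SVC. With the median over both probes, the log2 ratio was -1.61 for MA over SPA and -2.16 for MA over SVC, which is under 5-fold. Of 10 fibroblast and progenitor markers, 5 were at least 2-fold higher in MA than in SPA and 2 at least 2-fold lower, with a median log2 ratio of 1.56. The 2 were Pdgfra and Pdgfrb, receptors for platelet-derived growth factor (-2.05 and -1.42), and the 5 ran from Dpp4 with 2.16 to Dpt, the matrix protein dermatopontin, with 5.42. Their part in the level of Cdh2 was not tested. Cdh11, the mesenchymal type II cadherin, was at 2.43 in SVC, 2.13 in SPA and 1.67 in MA, at most 1.69-fold apart, and its second probe differed by at most 0.08 in any log2 ratio.

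Cdh13 was at -1.73 in SVC, -0.44 in SPA and 3.02 in MA. SPA exceeded SVC 2.44-fold and MA exceeded SPA 11-fold, so the level was highest in MA and lowest in SVC. Its spot on the MA array had an outlying local background. A second probe of the same transcript, whose spots had none, was at -2.65, -1.45 and 1.87, with log2 ratios of 1.20 for SPA over SVC and 3.32 for MA over SPA, beside 1.29 and 3.46 at the first. Of 4 further probes, which lie on other transcript models, 1 was well above background in MA alone and 3 on no array. The brightest probe lies at chr8:121837969-121838028 (mm9, plus strand).

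Cells that carry Cdh13 include endothelium and smooth muscle. All 12 endothelial markers were well above background on all 3 arrays, with a summed signal of 820 in SVC, 1260 in SPA and 18100 in MA. In MA, 11 of these exceeded their SPA level at least 5-fold. Among them, VE-cadherin (Cdh5) was at -2.05, -0.97 and 3.27, and claudin-5 (Cldn5) at -2.09, -1.33 and 5.60. The smooth muscle and pericyte markers parted. The pericyte genes Rgs5, Kcnj8 and Cspg4 were higher in MA than in SPA by log2 ratios of 5.33, 5.29 and 2.72. Among contractile genes, Acta2, Tagln and Cnn1 were lower, at -2.69, -3.10 and -1.23, but Myh11 was higher, at 1.06. Mcam and Des were higher by 0.99 and 0.63, each under 2-fold. The summed signal of those 9 markers was 74500 in SVC, 35100 in SPA and 11100 in MA. In SVC and SPA most of that sum came from Acta2 and Tagln, so it does not follow the list as a whole. Adiponectin (Adipoq), a ligand of Cdh13, was at -5.36 in SVC, where it was not well above background, at 1.56 in SPA and at 8.44 in MA. Of its other receptors, Adipor1 was level (3.43, 3.78 and 3.48) and Adipor2 was 3.67, 4.46 and 7.02. The part of endothelial or mural cells in the level of Cdh13 was not tested.

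Cldn22 had the largest difference of any member. It was at -7.04 in SVC and -5.77 in SPA, not well above background on either, and at 2.09 in MA. MA was thus higher by at least 7.23 on the log2 scale than SPA and by at least 7.04, or 132-fold, than SVC. With normexp the bounds were smaller, 4.73 over SPA and 4.69 over SVC, or 25.8-fold. The probe, at chr8:48910761-48910820 (mm9, plus strand), is the only one named for this gene. In GRCm38 its gene lies 1676 bases from Cldn24 and 606 bases from Wwc2, a scaffold of the Hippo pathway. The RefSeq probe of Cldn24, 2.7 kb before that of Cldn22 on the same strand, was well above background on no array (-7.04, -7.26 and -5.90). A further probe named Cldn24, from a cDNA clone 6 kb past the Cldn22 probe on the plus strand, was at -3.04 in SVC, -2.33 in SPA and -0.93 in MA, and is the one at which Cldn24 was read here. So the signal counted for Cldn24, 2.63-fold higher in MA than in SPA, was not borne by the probe on its RefSeq transcript.

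**Figure D3:**
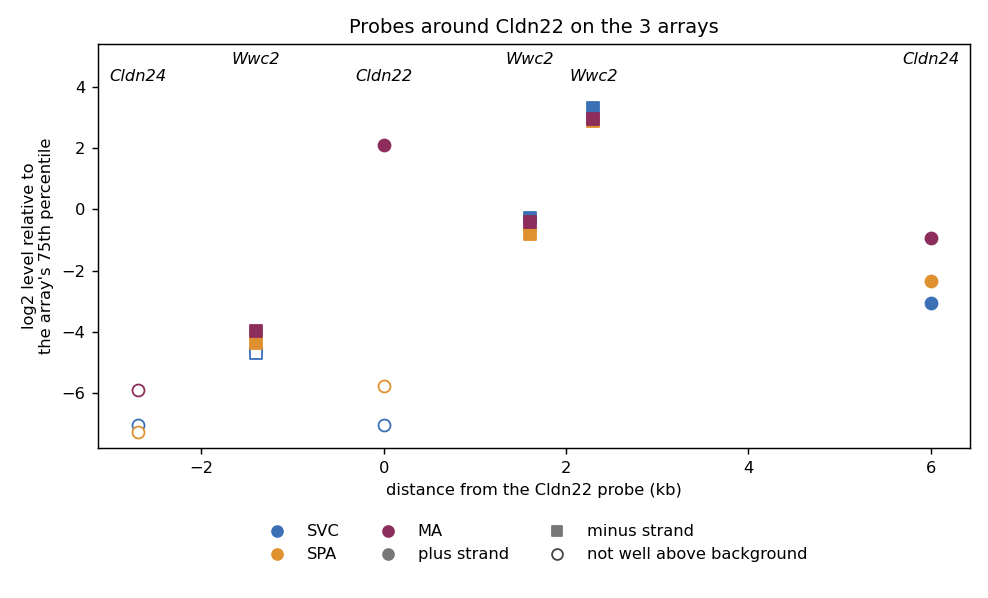
Levels at the 6 array probes within 10 kb of the Cldn22 probe. The x axis is the distance from that probe in kb, the y axis the level (log2 of the signal over the array's 75th percentile), with SVC in blue, SPA in orange and MA in purple, circles for plus-strand and squares for minus-strand probes, and open marks where a probe was not well above background. The Cldn22 probe reads 2.09 in MA and -7.04 and -5.77 in SVC and SPA, while the brightest Wwc2 probe, 2.3 kb away on the other strand, stays between 2.89 and 3.32.

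The Wwc2 probes on the minus strand did not share the step at Cldn22. The brightest was at 3.32 in SVC, 2.89 in SPA and 2.96 in MA, and the next at -0.27, -0.81 and -0.41. The probe closest to that of Cldn22, 1.4 kb away, was dim and rose slightly. It was at -4.70 in SVC, not well above background, -4.36 in SPA and -3.97 in MA. The MA fraction also carried red cell RNA, which neither cultured fraction did to that extent: the summed signal of 7 erythrocyte markers was 39.5 in SVC, 43.0 in SPA and 67900 in MA. Most of the sum in MA came from Hba-a1 and Hba-a2. The 10 adipocyte markers summed to 921, 7170 and 267000. The part of adipocytes and red cells in the Cldn22 signal was not tested.

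**Figure D4:**
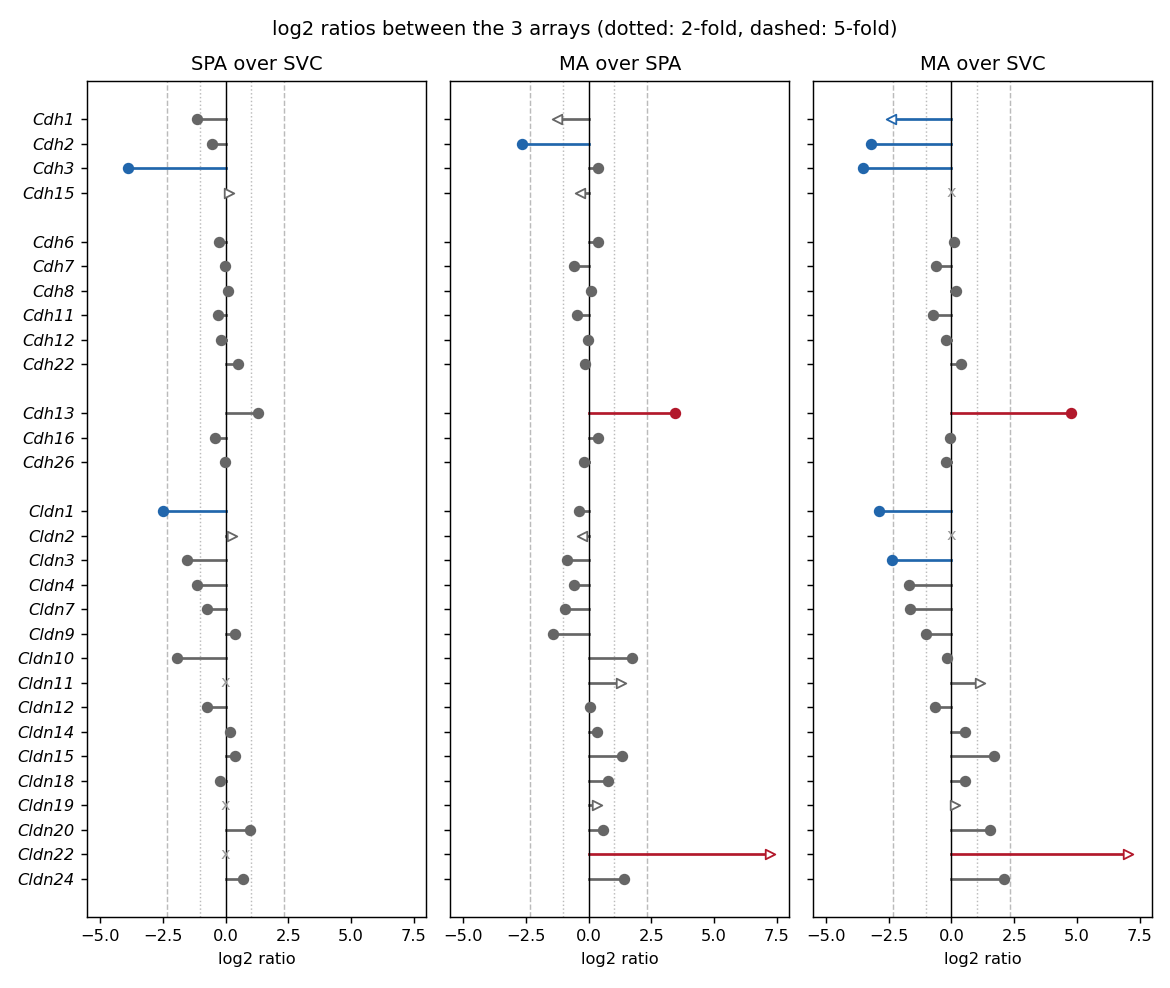
Log2 ratios of the 29 members for SPA over SVC, MA over SPA and MA over SVC. Filled points were measured on both arrays, hollow triangles are bounds set by the lowest signal well above background, x marks pairs with both arrays below it, and red and blue mark members past 5-fold up and down. The blue points of the first panel are Cdh3 and Cldn1, and the red ones of the other panels are Cdh13 and Cldn22.

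Other claudins differed less. Cldn15, a channel-forming claudin, was at 0.26 in SVC, 0.62 in SPA and 1.97 in MA, 2.55-fold higher in MA than in SPA. Cldn20 was at -3.09, -2.14 and -1.55, and its 1.94-fold from SVC to SPA lay just under 2-fold. Cldn9 was at -2.16, -1.78 and -3.20, lower in MA than in SPA by 2.66-fold, and was with Cdh22 one of the 2 members measured on all arrays that were highest in SPA. Cldn11, a claudin of myelin and Sertoli cells, was well above background in MA alone (-3.83), at least 2.48-fold higher than in SPA. Cldn19 was also above background in MA alone (-4.81) with a bound of 1.26-fold, and Cldn2, which forms cation pores, in SPA alone (-4.64). Cldn12, with 1.92, 1.20 and 1.25, stayed within 1.65-fold.

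At their brightest probes, the 6 type II members well above background (Cdh6, Cdh7, Cdh8, Cdh11, Cdh12 and Cdh22) stayed under 2-fold in every comparison. Over all 11 members that were measured on every array and stayed under 2-fold throughout, the log2 ratios ran from -0.72 (Cldn12) to 0.49 (Cdh22) for SPA over SVC and from -0.58 (Cdh7) to 0.78 (Cldn18) for MA over SPA. Cdh15, the M-cadherin of muscle precursors, was above background in SPA alone (-4.83), by a bound of 1.09-fold over SVC. Cdh16, the kidney-specific KSP-cadherin, was uncertain: its brightest probe gave -1.64, -2.06 and -1.69, but its other probe gave 0.55, -1.97 and -4.16, with log2 ratios of -2.52 for SPA over SVC and -2.19 for MA over SPA and -4.71 for MA over SVC, and outlying local background in SVC and MA. Probes also parted for Cdh22, where the second gave bounds of -2.00 for MA over SPA and -1.40 for MA over SVC beside -0.13 and 0.36 at the first, and for Cdh6, with bounds of -0.71 and -1.64 beside 0.39 and 0.11. The second probe of Cdh22 thus passed 2-fold in both comparisons, and that of Cdh6 in MA over SVC alone, unlike the brightest ones. The 9 cadherins Cdh4, Cdh9, Cdh10, Cdh17, Cdh18, Cdh19, Cdh20, Cdh23 and Cdh24 and the 6 claudins Cldn6, Cldn8, Cldn13, Cldn16, Cldn17 and Cldn23 were well above background on no array, which gives only an upper limit to their level.

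The partners of the cadherins and claudins were read from lists. Of 15 catenins and linkers of the adherens junction, 14 were well above background in SVC, 0 passed 5-fold between SPA and SVC, and 1 did between MA and SPA. That was plakoglobin (Jup), which links both cadherins and desmosomes to the cytoskeleton and was at -1.99 in SVC, -2.62 in SPA and -0.01 in MA. β-catenin (Ctnnb1, 2.81, 3.06 and 2.63) and α-catenin (Ctnna1, 4.91, 4.89 and 4.75) were nearly level across the arrays. The nectins, immunoglobulin-like adhesion proteins of the same junction, were all lower in MA than in SVC. The log2 ratios were -1.74 for Nectin1, -1.73 for Nectin2 and -1.74 for Nectin3. In this list of 15, 4 genes were at least 2-fold lower in MA than in SVC. Another 2 were higher, Jup with 1.98 and afadin (Afdn) with 1.11.

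Of 21 other tight junction genes, 19 were well above background in SVC or SPA. In SPA, 6 of the 19 lay at least 2-fold and 1 at least 5-fold below SVC, against 3.24% and 0.351% of all genes. The 6 were Pard6b, a polarity protein, with a log2 ratio of -2.50, the adhesion protein Cxadr with -2.28, cingulin (Cgn) with -2.23, Igsf5 with -2.03, the tricellular protein Lsr with -1.38 and the adhesion protein F11r with -1.27. Esam, also among the endothelial markers, was the only 1 at least 2-fold higher in SPA, with 1.38, against 3.89% of all genes. The scaffold ZO-1 (Tjp1) was at -0.21, -0.63 and 1.07, and ZO-3 (Tjp3) at -1.83, -1.57 and -4.37, so these relatives went opposite ways in MA. Occludin (Ocln) was well above background on no array. The SPA level of 3 of 12 desmosomal genes lay at least 2-fold below that of SVC, desmoplakin (Dsp) with a log2 ratio of -1.75 and, as bounds, the desmosomal cadherin Dsg2 with -1.50 and the plaque protein Pkp1 with -1.95. None of the 12 passed 5-fold there, and 1 did in MA over SPA, periplakin (Ppl) with 3.13.

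Among 8 transcription factors known as repressors of Cdh1, none passed 2-fold between SPA and SVC. In MA, where Cdh1 was not well above background, Snai1, Snai2 and Twist2 were lower than in SPA, with log2 ratios of -2.44, -2.07 and -1.27. Tcf4 was higher, at 1.17. Zeb1, Zeb2, Twist1 and Tcf3 stayed under 2-fold, at 0.60, 0.12, 0.50 and -0.65. Of 10 epithelial regulators, the splicing factor Esrp2 (-2.09) and, as a bound, the adhesion protein Epcam (-1.38) were at least 2-fold lower in SPA than in SVC. In MA over SPA, Grhl1 was higher by 3.06 and Klf5 lower, at -3.64. Of 8 proteases that can shed cadherins, 0 passed 2-fold between SPA and SVC. In MA over SPA, Mmp3 and Mmp7 were lower by bounds of -6.61 and -3.28, with Mmp14 at -2.28, and Psen2 was higher, at 1.49.

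Markers of further cell types were read in the same way. From SPA to MA, 1 of 8 Schwann markers was at least 5-fold higher (S100b), and of 8 neuronal markers 1 was at least 5-fold higher (Stmn2) and 1 lower (Nefl). Of 9 smooth muscle and pericyte markers, 3 were at least 5-fold higher and 2 lower in MA, and Cnn1 was already lower in SPA than in SVC (-3.75). Of 10 fibroblast and progenitor markers, 4 were at least 5-fold higher in MA than in SPA. Of 8 macrophage markers, 1 was higher (C1qa) and 1 lower (Cd68). In the adipocyte list, 7 of 10 genes passed 5-fold upward from SVC to SPA, and 9 did from SPA to MA. Several of these genes are in the paper's own lists from these arrays, so they are no independent check of the labels. The paper also lists Lep and Lipe as 5 times higher in SPA than in SVC. Here they were 1.19-fold and 4.16-fold higher.

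**Figure D5:**
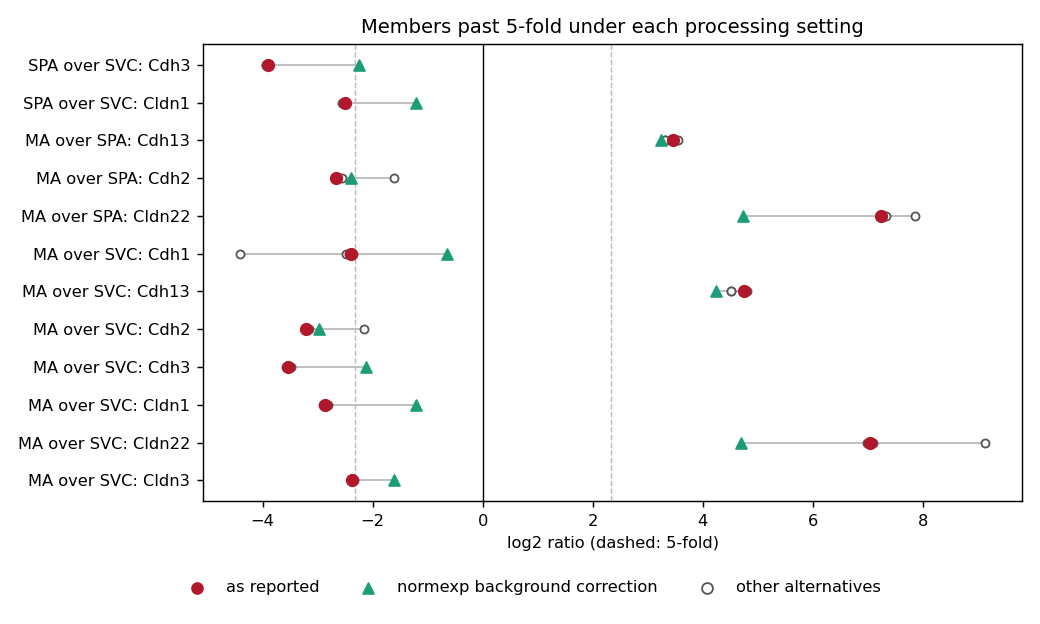
Log2 ratios of the members past 5-fold, by comparison, under each processing setting. Red points are the values as reported (for Cdh1 and Cldn22 a bound), green triangles those with the normexp background correction and open points the other alternatives, and the dashed lines mark 5-fold. No value changed its side of 0, and the normexp values of Cdh3, Cldn1, Cldn3 and Cdh1 lie inside the dashed lines.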

How the data were processed

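SVC, SPA and MA were each hybridised to 1 Agilent 1-colour expression array, 3 arrays on 1 slide, and grouped by their records. The authors deposited the intensity of each spot as written by Agilent Feature Extraction 10.7.3.1, with the background taken off and spatial trends within an array removed, and also a ratio of that signal to 1 constant per array. Each array has 62976 spots, 59305 of them not controls, of which 58.6% in SVC, 61.4% in SPA and 61.3% in MA were well above background and 0 were saturated. Their 75th percentile was 430, 439 and 366, and probes spotted repeatedly had a median SD of 0.04 to 0.05 on the log2 scale within an array. The number of arrays limits the precision.

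Signals were divided by their array's 75th percentile and log2 transformed, and replicate spots were averaged. Where a gene has several probes, the one brightest on average over the 3 arrays stood for it. Outlier and control spots were left out, and 0 of the outlier spots belonged to members. Every member well above background on at least 1 array could be named, and other genes only from 7 gene lists and 11 marker lists, of which 1 is not reported here. The members and lists were chosen with earlier results of these data known. Probes are placed as in the array's own annotation, in mm9. No annotation of that build was used, so exons and UTRs are not stated. Of the 77 member probes, 59 had an accession in the RefSeq gene table of GRCm38.p6, and 0 changed their name. The 9 alternatives were another background correction (limma's normexp, offset 50), 2 normalizations, 2 filters on dim probes, 2 rules for several probes, leaving out spots of outlying local background, and the deposited ratios. The script that calls ratios and bounds was tested on simulated data. The tools were R 4.3.3 with limma 3.58.1 for normexp and quantile normalization, and Python 3.11.15 with matplotlib 3.10.9, pandas 2.3.3 and numpy 2.4.6 for the rest.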

Additional observations from a re-analysis of the deposited data

How the results depend on the processing

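Of 54 alternative values for the 6 counts at 5-fold, 48 stayed within 1.5 times the count as reported. With normexp, 0 members in place of 2 were at least 5-fold lower in SPA than in SVC, and 2 in place of 5 were so in MA against SVC, 1 of them shared (Cdh2) and Cdh16 added, since another probe of Cdh16 was then the brightest. When both arrays had to be well above background, Cldn22 has no value, and 1 member in place of 2 was at least 5-fold higher in MA against SPA and 1 against SVC. With no filter on dim probes, 2 members in place of 1 were at least 5-fold lower in MA than in SPA, Cdh1 being added. With the median of the probes, 0 were. The cause of the other shifts was not tested. Of 54 values for the counts at 2-fold, 49 stayed within 1.5 times. Of 105 alternative log2 ratios of members past 5-fold, 97 kept their direction and their side of 5-fold, 8 kept the direction alone and 0 reversed.

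Signal over background limits the dim probes, since SVC, SPA and MA gave no level below -4.95, -5.14 and -5.15 for a probe well above background. No paired analysis was possible because each group has 1 array. With 1 array in each group, leaving out a replicate could not be done either. The real-time PCR, flow cytometry and imaging of the study were not analysed here.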
